A study of Mus musculus with 36 samples.

Results

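Mice that ran 75% of the distance that unrestricted runners covered (HFD-75%) were compared with sedentary mice (HFD-C), both on a high-fat diet, in gastrocnemius, the main calf muscle. The comparison takes 12 of the 36 libraries of the series, 6 mice in each group, and the members were taken from the treatment given for each sample. All 12 mice were wild-type C57BL/6 males, 3 to 4 weeks old at the start, that were kept on the diet for 12 weeks, its fat coming from soybean oil. HFD-75% mice ran 6.3 km/day on a wheel in the cage, which could turn from Zeitgeber time 12, the start of the dark phase, until the mouse had run its quota for that night. HFD-C mice were sedentary. The other groups of the series were sedentary mice on a normal-fat diet (NFD-C) and high-fat runners that covered 2.1 (HFD-25%), 4.2 (HFD-50%) or 8.3 km/day (HFD-U, unrestricted). One gastrocnemius from each mouse gave 1 library, so each replicate was a separate animal. The hour of collection and the time since the last run are not given in the sources used here.

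Gastrocnemius of the mouse is mostly fast muscle, and endurance running is known to act on its fuel use, its capillaries and its connective tissue. FOXO1 is a transcription factor held out of the nucleus by insulin signalling, and with the glucocorticoid receptor it drives genes that spare glucose and break down muscle protein. Muscle also holds a circadian clock, in which BMAL1 and CLOCK drive the Per, Cry and Rev-erb genes through E-box sites, and PER, CRY and REV-ERB proteins close the loop by repression.

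The libraries held 14495389 to 27981702 counts on genes, with a median of 16926829.5. Values per mouse are given in CPM, counts scaled to the size of each library with TMM factors, which can be compared between mice but not between genes of different lengths. Between any 2 mice of a group the counts varied 18.6 to 210 times more than sampling noise (chi-square per degree of freedom), so each library was counted as its own replicate. Of 9 tested markers of skeletal muscle, 0 differed by edgeR's test at an unadjusted p of 0.05, and the summed level of the list was 117594 to 167275 CPM in HFD-75% and 106492 to 170152 CPM in HFD-C. Mylpf, the fast regulatory light chain, is on that list and was counted only 12.25 times per library on average, which left it out of the test.

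The HFD-C libraries fell into 2 sets. Features linked to ribosomal RNA, namely LOC118568312 and AY036118, neighbours on chromosome 17, the mitochondrial rRNAs and Lars2, took 3.54, 3.14, 2.30 and 2.12% of the counts in HFD-C replicates 1 to 4. They took 0.551 and 0.626% in HFD-C replicates 5 and 6, and 0.404 to 0.822% in the 6 HFD-75% libraries. Among these 12 libraries the high set lies within HFD-C, and in the rest of the series the 6 NFD-C libraries were also high, at 2.01 to 3.80%, while the highest library of HFD-25%, HFD-50% and HFD-U was at 1.02%. The counts of the gene lists are also given from the libraries with a share under 1.5%, which are all 6 of HFD-75% and 2 of HFD-C and are called the low-share libraries. HFD-75% replicate 1 stood apart in another way. Shares of adult myosin heavy chain (Myh7, Myh2, Myh1 and Myh4) were taken from counts divided by gene length. By that measure 54.2% was on Myh4, the fastest isoform, in this mouse, against 84.8 to 95.2% in the other HFD-75% mice and 76.6 to 97.5% in HFD-C.

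**Figure D1:**
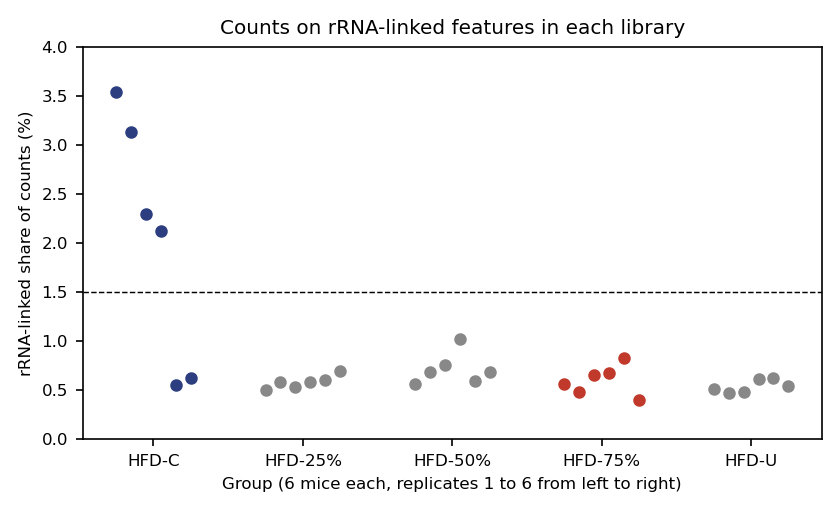
Share of each library's counts on rRNA-linked features, in percent, for the 5 groups on the high-fat diet (NFD-C, at 2.01 to 3.80%, is not drawn). Each point is 1 mouse and the dashed line marks 1.5%. HFD-C replicates 1 to 4, at 2.12 to 3.54%, lie above the line, and every HFD-75% library is at 0.822% or less.

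Few genes separated the runners from the sedentary mice beyond the spread between animals. With edgeR's two-sided quasi-likelihood test 663 of 12113 genes (5.47%) passed an unadjusted p of 0.05, where 5% of the genes would be 605.65, with 280 higher (2.31%) and 383 lower (3.16%) in HFD-75%. None passed a Benjamini-Hochberg adjusted p of 0.05 in edgeR, the smallest being 0.0834, while DESeq2 on the same genes gave 40, of which 12 were higher and 28 lower. Of these 40, 36 were tested in the low-share libraries, where 32 kept their direction, 29 of them past the unadjusted threshold. The lower genes included the rRNA-linked Lars2, LOC118568312 and AY036118, which were at 0.34, 0.39 and 0.42 there. The low-share libraries gave 1069 of 11885 genes (8.99%) at the unadjusted threshold, 540 higher (4.54%) and 529 lower (4.45%), and 0 adjusted. With the share as a covariate in all 12 libraries there were 1020 (8.42%), 536 higher (4.42%) and 484 lower (4%), and again 0 adjusted. Of the 663 genes, 633 were tested in the low-share libraries, and 615 kept their direction, 228 of them past the threshold. The low-share libraries are part of the same 12, in which the genes were called. Their agreement in direction, here and below, is not independent evidence. The median difference over all genes was −0.00 on the log2 scale, and the middle of the distribution (5th to 95th percentile) ran from −0.43 to 0.34. For genes named below, a log2 difference is HFD-75% minus HFD-C, ± its standard error, with 6 mice in each group. A gene is called higher or lower, or said to pass, where its unadjusted p was at most 0.05, and its adjusted p in edgeR was above 0.05 in every case.

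In 33 genes (0.272%) no mouse of one group overlapped with the other group, 12 higher (0.0991%) and 21 lower (0.173%) in HFD-75%. Among 12113 genes some separate in this way by chance, and how many would do so was not tested. The same share was 0.185% against HFD-50%, 0.439% against HFD-U and 0.0914% against HFD-25%. Separation alone therefore does not set a gene apart from chance. Nfatc2, a calcium-responsive transcription factor that calcineurin sends to the nucleus (chr2:168318330-168443900, minus strand, GRCm39), was at 7.79, 10.9 and 11.8 CPM (lowest, median and highest) in HFD-75% and at 16.4, 19.9 and 31.2 CPM in HFD-C. Every runner was below every sedentary mouse, and the difference of −1.08 ± 0.16 (2.12-fold lower) had the smallest p of all genes. Its edgeR adjusted p was 0.0834 and ranged from 1.18e-05 to 0.485 over the alternatives, and in the low-share libraries the difference was −0.79.

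Cxxc5, a CXXC zinc finger regulator of Wnt signalling, was at 7.41, 9.48 and 12.8 CPM in HFD-75% and 15.2, 17.8 and 22.1 CPM in HFD-C, a difference of −0.86 ± 0.16 (edgeR adjusted p = 0.206), and of −0.86 in the low-share libraries. Angptl2, a secreted angiopoietin-like protein linked to inflammation, was at 16.0, 21.4 and 22.3 CPM against 24.8, 30.7 and 34.4 CPM, or −0.59 ± 0.12 (edgeR adjusted p = 0.239). The groups were again apart in both, and in the low-share libraries Angptl2 was at −0.56. The other genes below every sedentary mouse were Prex1, Adgrd1, Rarb, Dusp14, Calm2, Dab2, Trerf1, Tec, Rian, Alpk1, Ntrk2, Lcp1, Tcf4, Alg6, Cyp20a1, Vhl, Orc4 and Gpatch11. They were listed after their values were seen and include Rarb, a retinoic acid receptor, Vhl, which marks HIF proteins for destruction, and Calm2, a calmodulin gene whose paralogs encode the same protein.

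On the higher side, Mfsd13a, a membrane transporter family member, was at 2.57, 3.02 and 3.66 CPM in HFD-75% and 1.35, 1.52 and 1.80 CPM in HFD-C, a difference of 1.04 ± 0.20. Arl2bp, a partner of the ARL2 GTPase, was at 59.1, 65.0 and 74.1 CPM against 32.0, 41.6 and 55.7 CPM, or 0.61 ± 0.12. Golm2, a Golgi membrane protein, was at 14.7, 16.3 and 18.2 CPM against 6.86, 8.96 and 13.1 CPM, a difference of 0.76 ± 0.17, and of 1.22 in the low-share libraries. No runner overlapped a sedentary mouse in any of the 3 genes. Glul, glutamine synthetase, was also apart, and so were, among others, Atg16l1, which autophagosome formation needs, Pon2, Tspan14, Cript, Mto1, Dhx35 and Gm11249. Gm11249 and Rps2-ps10, a ribosomal protein pseudogene that was 1.20 higher and 0.53 higher in the low-share libraries, are uncertain where they share reads with near-identical copies. In Gm11249, HFD-C replicates 1 to 4 were at 4.44 to 6.39 CPM and replicates 5 and 6 at 9.06 and 12.5 CPM, beside 13.3 to 17.6 CPM in HFD-75%, and Gm5805 was 1.02 ± 0.31 higher over all 12 libraries and 0.26 in the low-share libraries, where it did not pass.

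Several of the steepest differences moved with the rRNA-linked share. LOC118568007 was at 16.2 to 30.2 CPM in HFD-C replicates 1 to 4, at 1.44 and 0.538 CPM in replicates 5 and 6, and at 0.33 to 1.28 CPM in HFD-75%, a difference of −4.47 ± 0.78. Rn7sk, the 7SK small nuclear RNA, which has no poly(A) tail, was at 6.50 to 8.77 CPM in HFD-C replicates 1 to 4, at 0.120 and 1.14 CPM in replicates 5 and 6 and at 0.25 to 0.83 CPM in the runners. Lars2, mitochondrial leucyl-tRNA synthetase, was at 712 to 1442 CPM in HFD-C replicates 1 to 4, at 82.8 and 70.2 CPM in replicates 5 and 6, and at 76.5 to 131 CPM in HFD-75%. Its difference was −2.94 ± 0.60 over all 12 libraries and 0.34 in the low-share libraries, where it did not pass, so the sign depends on HFD-C replicates 1 to 4. AY036118 went from −2.64 to 0.42 and passed in the low-share libraries as higher, and LOC118568312 went from −2.65 to 0.39 and did not pass there. Gm22009 was at 3.99 to 4.28 CPM in HFD-C replicates 1 to 4, at 0.12 and 0 CPM in replicates 5 and 6 and at 0 to 0.321 CPM in HFD-75%. Flrt1 was −1.53 over all 12 libraries and −0.29 in the low-share libraries, where it did not pass.

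**Figure D2:**
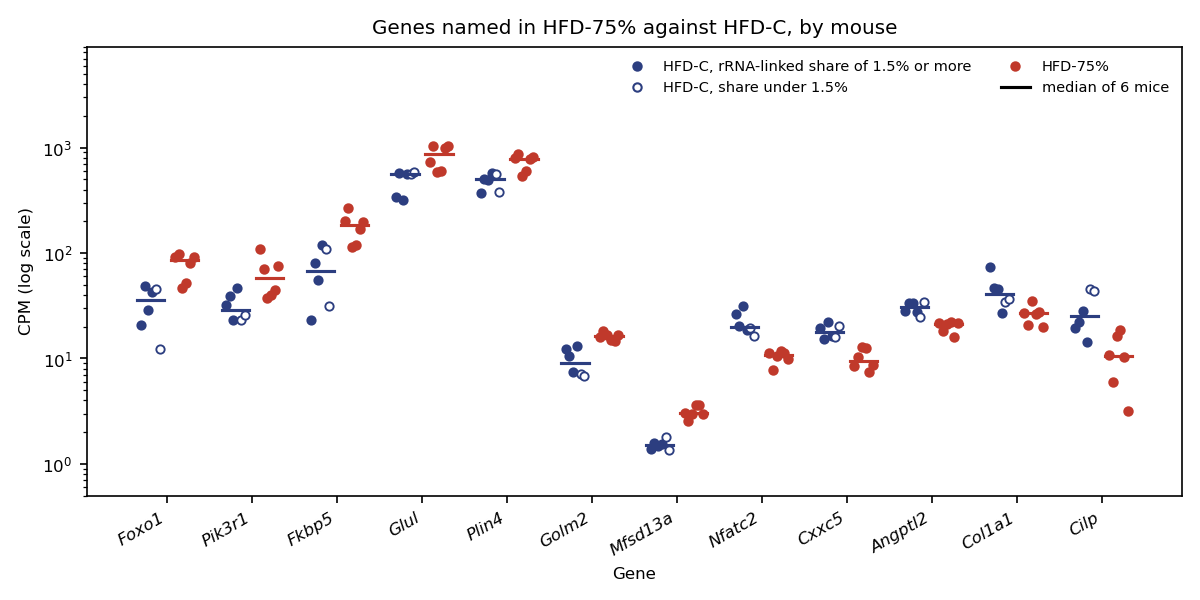
Expression per mouse, in CPM on a log scale, of 12 genes from the groups described in the text. Each point is 1 mouse, the bars are medians, and open symbols are the HFD-C mice whose rRNA-linked share was under 1.5%. Nfatc2, Cxxc5 and Angptl2 lie lower and Mfsd13a, Golm2 and Glul higher in every HFD-75% mouse than in any HFD-C mouse, and the other panels overlap.

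Genes of FOXO signalling and muscle atrophy were higher in the runners where they differed. Of 28 tested members, 7 were higher at an unadjusted p of 0.05 and 0 lower, beside 2.31% higher over all genes, and the median difference was 0.13 on the log2 scale beside −0.00 over all genes. From the low-share libraries alone 5 were higher and 1 lower, beside 4.54% and 4.45% over all genes. Foxo1 itself (chr3:52175758-52257530, plus strand, GRCm39) was at 47.0, 85.9 and 99.0 CPM in HFD-75% and at 12.4, 35.8 and 48.3 CPM in HFD-C. Only the lowest runner, at 47.0 CPM, fell within the range of the sedentary mice, and the difference was 1.22 ± 0.29 (2.33-fold). Its edgeR adjusted p was 0.372 and ranged from 0.0165 in DESeq2 to 0.71 over the alternatives, and the low-share difference was 1.40.

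Pik3r1, the regulatory subunit of PI3-kinase upstream of FOXO1, was at 37.6, 57.4 and 110 CPM in HFD-75% and 23.2, 29.1 and 46.8 CPM in HFD-C, a difference of 0.99 ± 0.26. Sesn1, a stress-induced regulator of mTORC1, was at 21.3, 33.1 and 53.7 CPM against 16.0, 22.1 and 26.6 CPM, or 0.66 ± 0.19. The low-share differences of Pik3r1 and Sesn1 were 1.36 and 0.75, and both passed there. The ubiquitin ligases of atrophy were highest in a single runner. Trim63 (MuRF1) was at 1793 CPM in HFD-75% replicate 5 and 328 to 1031 CPM in the other 5, beside 284 to 473 CPM in HFD-C, a difference of 1.07 ± 0.33. Fbxo32 (atrogin-1) was at 1545 CPM in the same mouse and at 459 to 823 CPM in the others, beside 416 to 544 CPM in HFD-C, or 0.70 ± 0.25. With the low-share libraries Trim63 was at 1.11 and Fbxo32 at 0.80, and neither passed. Klf15 (0.41) and Txnip (0.38) were the other members past the threshold, and Foxo3 missed it at 0.43 ± 0.21.

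Among glucocorticoid-induced genes, 9 of 28 tested were higher and 1 lower, beside 2.31% and 3.16% over all genes, with a median of 0.22 that became 0.42 without HFD-C replicate 5. The higher members Klf15, Pdk4, Angptl4, Pik3r1, Foxo1 and Sesn1 also stand in the FOXO or PPAR list, so the counts of the 3 lists are not separate. Fkbp5, a co-chaperone of the glucocorticoid receptor and among its most responsive targets, was at 114, 185 and 269 CPM in HFD-75% and 23.3, 68.1 and 120 CPM in HFD-C. Both the spread within HFD-C and the step between the groups were wide, and the difference was 1.35 ± 0.35 (2.55-fold). Fkbp5 was at 1.33 in the low-share libraries, where it passed, and at 1.05 with the share as a covariate, where it did not. Zbtb16, a zinc finger transcription factor, was at 121, 177 and 273 CPM against 52.9, 100 and 153 CPM, or 0.76 ± 0.26, and 1.40 in the low-share libraries. Glul, which makes glutamine for export from muscle, was at 587, 863 and 1042 CPM in HFD-75% and 321, 562 and 582 CPM in HFD-C, a difference of 0.76 ± 0.20. It was 0.53 in the low-share libraries and 0.49 with the share as a covariate, and did not pass in either. Other classical targets gave values near 0, with Tsc22d3 (GILZ) at 0.09 ± 0.21 and Sgk1 at −0.02 ± 0.19, and Per1, a target and a clock gene, was the member that was lower. The low-share libraries gave 7 members higher and 2 lower, beside 4.54% and 4.45%, and a median of −0.01.

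Of 34 tested PPAR targets and genes of fatty acid oxidation, 5 were higher and 0 lower at an unadjusted p of 0.05, beside 2.31% higher over all genes. The median was 0.24, and 33 had a positive difference, beside 49.8% over all genes. Between mice of the same group the list's median varied with an SD of 0.44 on the log2 scale, and its members are not separate evidence. In the low-share libraries the median was 0.47 and 6 were higher, beside 4.54%. Plin4, a coat protein of lipid droplets, was at 535, 785 and 865 CPM in HFD-75% and 370, 501 and 572 CPM in HFD-C, a difference of 0.61 ± 0.16. Only the runner at 535 CPM fell within the sedentary range. Pdk4, the kinase that switches off pyruvate dehydrogenase, was at 1300.0, 1820 and 2623 CPM against 622, 1055 and 1848 CPM, or 0.76 ± 0.25. Ucp3, a mitochondrial carrier induced by fatty acids, was at 273, 471 and 622 CPM against 173, 278 and 389 CPM, or 0.70 ± 0.22. It was 0.58 in the low-share libraries and 0.50 with the share as a covariate, and did not pass in either. Angptl4, which inhibits lipoprotein lipase, was 1.09 ± 0.37 higher, and Mlycd, which breaks down malonyl-CoA, 0.53 ± 0.24 higher. Abundant enzymes and carriers of the list, such as Acadvl at 0.33 ± 0.24, Fabp3 at 0.30 ± 0.38 and Lpl at 0.17 ± 0.38, did not pass. The list's median was 0.07 without HFD-75% replicate 1, the mouse with the low share of Myh4, and 0.41 without HFD-C replicate 1.

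Among genes of nitrogen metabolism and the carbonic anhydrases, 3 of 9 tested were higher and 0 lower, beside 2.31% higher over all genes, with a median of 0.07 that ran from −0.06 without HFD-75% replicate 1 to 0.23 without HFD-C replicate 4. They were Glul, Car4 and Car14. Car4, a carbonic anhydrase on the outside of capillary and muscle membranes, was at 7.88, 9.68 and 13.3 CPM in HFD-75% and 2.94, 3.67 and 11.9 CPM in HFD-C, where replicate 4 alone reached the range of the runners. The difference was 0.96 ± 0.31. Of the 21 tested genes of folate metabolism and antifolate resistance, 4 were higher and 1 lower, beside 2.31% and 3.16% over all genes. Their median was 0.14, and 2 were higher when HFD-75% replicate 1, 2, 3 or 6 or HFD-C replicate 5 was left out. Aldh1l1, the folate-dependent formate-releasing enzyme of the cytosol, was at 5.53, 6.92 and 8.61 CPM against 2.63, 3.54 and 6.59 CPM (0.74 ± 0.23). Its difference was 0.47 in the low-share libraries and 0.43 with the covariate, and did not pass in either. The others higher were Gart, Abcc4 and Abcg2. The member lower was Abcc1, at −0.37. From the low-share libraries 1 of the nitrogen genes and 3 of the folate genes were higher and 0 lower, beside 4.54% and 4.45% over all genes.

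The clock genes were listed by their usual phase. Of 5 tested genes in phase with Bmal1, 3 were higher and 0 lower with a median of 0.27, beside 2.31% higher over all genes. Without HFD-75% replicate 5, however, the count was 0 and the median 0.23. Of 13 in phase with Dbp, 7 were lower and 0 higher with a median of −0.49, beside 3.16% lower over all genes. With the low-share libraries 1 of the first set was higher and 6 of the second were lower, beside 4.54% and 4.45% over all genes. Arntl, which encodes BMAL1, was at 8.14, 11.7 and 33.1 CPM in HFD-75% and 4.84, 8.13 and 11.1 CPM in HFD-C, a difference of 0.89 ± 0.33. Without replicate 5 of HFD-75%, the mouse at 33.1 CPM, it was 0.51 and did not pass. Nfil3, a repressor that acts at D-boxes, was 0.63 ± 0.29 higher and Cry1, a late repressor of the loop, 0.27 ± 0.12 higher. Clock, whose level is known to vary little over the day, was −0.02 ± 0.13.

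Bhlhe40 (DEC1), a repressor that binds E-boxes, was at 42.8, 51.3 and 75.4 CPM in HFD-75% and 57.2, 91.7 and 110 CPM in HFD-C, a difference of −0.70 ± 0.17. Nr1d1, which encodes REV-ERBα, the repressor of Arntl, was at 13.0, 26.3 and 37.1 CPM against 25.6, 41.9 and 68.7 CPM, or −0.81 ± 0.24. The median runner was close to the lowest sedentary mouse in both. Per1 was at 56.9, 87.5 and 91.3 CPM against 85.1, 103 and 164 CPM (−0.53 ± 0.17), and Ciart (CHRONO) at 2.05, 4.28 and 7.58 CPM against 2.12, 8.76 and 19.8 CPM (−1.18 ± 0.42). The low-share differences were −0.59 for Bhlhe40, −0.72 for Nr1d1, −0.62 for Per1 and −1.61 for Ciart, and all 4 passed there. Bhlhe41, Per3 and Nr1d2 were also lower, at −0.49, −0.51 and −0.22. Dbp itself was at 18.1, 62.3 and 83.7 CPM against 27.8, 95.1 and 110 CPM, a difference of −0.57 ± 0.33 that missed the threshold, and Per2, Cry2, Tef and Usp2 were between −0.19 and 0.01.

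**Figure D3:**
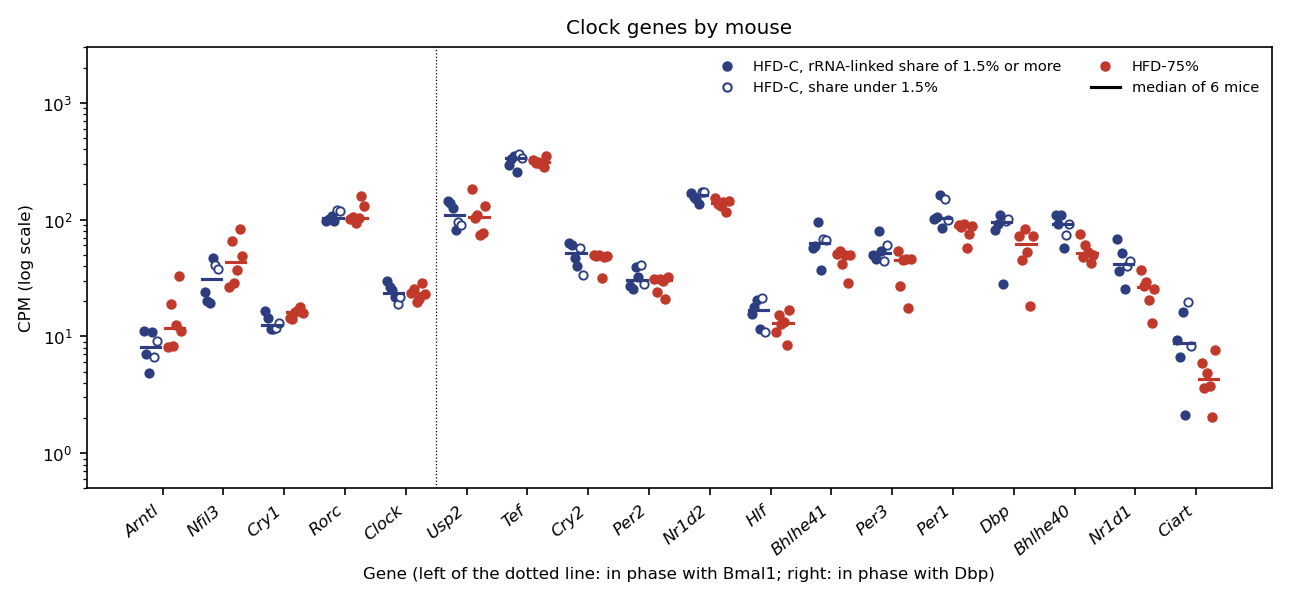
Expression per mouse, in CPM on a log scale, of the 18 tested clock genes, those in phase with Bmal1 first and those in phase with Dbp after them. Each point is 1 mouse and the bars are medians. Arntl, Nfil3 and Cry1 were higher in HFD-75% and Bhlhe40, Nr1d1 and Per1 lower by edgeR's test, but the ranges of the groups overlap in all 18 genes.

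The bases before the starts of 4 clock genes are shown because they hold the letters of an E-box or a D-box, the sites through which the loop is known to act. The windows are the 250 bases before the start in RefSeq (GRCm38.p6), read 5′ to 3′ along the gene, and capitals mark the motif.
Per1 (chr11:69098699-69098948, plus strand): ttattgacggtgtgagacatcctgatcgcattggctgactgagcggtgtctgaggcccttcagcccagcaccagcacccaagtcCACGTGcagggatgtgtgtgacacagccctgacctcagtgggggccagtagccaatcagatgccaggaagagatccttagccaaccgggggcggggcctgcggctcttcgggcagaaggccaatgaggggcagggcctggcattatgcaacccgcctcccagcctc
Ciart (chr3:95882229-95882478, minus strand): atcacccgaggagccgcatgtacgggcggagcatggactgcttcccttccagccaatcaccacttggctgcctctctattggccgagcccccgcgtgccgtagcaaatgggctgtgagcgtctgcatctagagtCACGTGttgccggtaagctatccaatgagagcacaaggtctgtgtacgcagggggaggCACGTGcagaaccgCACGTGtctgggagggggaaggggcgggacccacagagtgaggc
Cry1 (chr10:85185055-85185304, minus strand): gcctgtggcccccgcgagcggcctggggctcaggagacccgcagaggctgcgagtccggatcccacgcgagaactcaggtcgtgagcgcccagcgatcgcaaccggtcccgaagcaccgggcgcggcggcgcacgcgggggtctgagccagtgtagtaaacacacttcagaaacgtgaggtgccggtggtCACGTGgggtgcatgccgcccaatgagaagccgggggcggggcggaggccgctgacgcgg
Per3 (chr4:151044666-151044915, minus strand): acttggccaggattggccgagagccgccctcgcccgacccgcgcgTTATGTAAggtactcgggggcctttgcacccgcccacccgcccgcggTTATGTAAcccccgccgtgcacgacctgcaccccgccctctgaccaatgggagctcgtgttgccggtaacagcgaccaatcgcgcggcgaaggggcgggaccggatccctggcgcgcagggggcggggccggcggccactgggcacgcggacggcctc

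The window of Per1 holds 1 E-box (CACGTG), 166 bases before the start, that of Ciart 3 between 116 and 44 bases before it, and that of Cry1 1 at 60 bases. Per3 holds 2 D-boxes (TTATGTAA), at 205 and 158 bases. On both strands, the E-box was in 4 of the 11 matched genes in phase with Dbp (Bhlhe41, Ciart, Per1 and Tef), or 5 of their 13 windows. It was in 1 of the 5 matched genes in phase with Bmal1 (Cry1), or 1 of their 8 windows. Of the 32851 windows in the RefSeq table, where a gene can have several, 6.02% held it. The D-box, searched as TTATGTAA or TTACGTAA, was in Per3 alone of these genes, in 1 of the 13 windows of its list, and in 0.931% of all windows. Genes with an E-box went in both directions, since Bhlhe41, Ciart and Per1 were lower, Cry1 higher and Tef at −0.05 ± 0.11. The palindromic glucocorticoid element was found before Fam107a, Mt1 and Sgk1 of the 27 matched genes of its list. These genes had 44 windows, of which 4 held it, beside 0.387% of all windows.

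Collagen chains and other matrix genes had mostly negative differences over all 12 libraries. Of 31 tested collagen chains, 1 was higher and 6 lower at an unadjusted p of 0.05, with 25 negative differences and a median of −0.30. Of 41 matrix proteins and remodelling enzymes 0 were higher and 6 lower with a median of −0.27. Over all genes 2.31% were higher and 3.16% lower, and 49.8% of the differences were positive. The SD of the list's median between mice of the same group was 0.19 for collagens and 0.24 for matrix genes. With 1 mouse left out, 5 to 10 collagens were lower (10 without HFD-C replicate 6), and 3 (without HFD-C replicate 1) to 13 (without HFD-75% replicate 3) matrix genes, whose median ran from −0.16 to −0.34 with those same mice left out. Col1a1, a chain of type I collagen (chr11:94827050-94843868, plus strand, GRCm39), was at 19.8, 26.8 and 34.8 CPM in HFD-75% and 27.3, 41.2 and 74.0 CPM in HFD-C, a difference of −0.76 ± 0.21. Col1a2 was at 42.7, 52.8 and 70.9 CPM against 62.0, 76.6 and 110 CPM (−0.56 ± 0.16), and Col3a1, Col5a1, Col6a3 and Col15a1 were −0.58, −0.64, −0.57 and −0.54. Col28a1 was the chain higher, by 1.10 at a median of 1.91 against 1.10 CPM, and the basement membrane chains Col4a1 and Col4a2 were at −0.00 and −0.12.

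These lists moved with the library sets. The low-share medians were −0.02 and −0.00, with 1 collagen higher and 2 lower, and 2 matrix genes higher and 4 lower, beside 4.54% and 4.45%. The summed collagen level was 600 to 887 CPM in HFD-C replicates 1 to 4, 595 and 675 CPM in replicates 5 and 6, and 501 to 682 CPM in HFD-75%. Col1a1 was also lower in the low-share libraries (−0.46), while Col5a1 was at −0.04 and Col15a1 at −0.02. With the share as a covariate Col1a1 was −0.33 and did not pass. Col1a2 was −0.40 in the low-share libraries and −0.31 with the covariate, and did not pass in either. Members that passed both in all 12 and in the low-share libraries included Cilp, a matrix protein that restrains TGF-beta, at 3.15, 10.6 and 18.5 CPM against 14.2, 25.3 and 45.7 CPM (−1.42 ± 0.37, low-share −2.05), and Tgfb2, a TGF-beta ligand, at 8.82, 10.7 and 13.2 CPM against 11.7, 16.4 and 23.3 CPM (−0.64 ± 0.16, low-share −0.68). Loxl1, a collagen crosslinking enzyme, was −0.64 and in the low-share libraries −0.78.

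Markers of fibroblasts and leukocytes were measured beside the matrix genes, because in whole muscle fewer cells of a type and less RNA per cell cannot be told apart. Of 7 fibroblast markers 0 were higher and 1 lower (Lum), the median was −0.19, and the summed level was 242 to 420 CPM in HFD-75% and 241 to 447 CPM in HFD-C. Of 7 tested leukocyte markers 0 were higher and 2 lower (Cd68 and Csf1r), the median was −0.31, and the sums were 34.7 to 90.8 CPM and 55.8 to 95.8 CPM. The low-share medians of the fibroblast and leukocyte lists were −0.03 and −0.05. Of 4 tendon markers 0 passed in either direction, with sums of 34.3 to 86.0 CPM and 29.5 to 91.8 CPM. Of 11 adipocyte markers 1 was higher (Lipe), of 5 red blood cell markers 1 was lower (Hba-a2), of 3 satellite cell markers 1 was higher (Myf5), and of 4 Schwann cell and 4 smooth muscle and pericyte markers 0 passed in edgeR. In the low-share libraries 2 of the smooth muscle and pericyte markers were higher (Rgs5, 0.52, and Pdgfrb, 0.92) with a median of 0.36. The same libraries gave 2 adipocyte markers lower (Lep and Cidec) and 1 fibroblast marker higher (Pdgfra), and 0 of the other cell types passed. Over all genes 2.31% were higher and 3.16% lower in the 12 libraries, and 4.54% and 4.45% in the low-share libraries. The part of these cells in the lower matrix genes was not tested.

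Among cytokines, chemokines and their receptors 2 of 43 tested were higher and 3 lower, 4.65% and 6.98% beside 2.31% and 3.16% over all genes, with a median of −0.02. Only 1 was lower when HFD-75% replicate 1, 2 or 6 or HFD-C replicate 1 was left out. The higher members were Bmp6 (0.54 ± 0.17) and Il6ra, the interleukin 6 receptor, at 2.63, 7.10 and 10.1 CPM against 1.95, 3.88 and 5.16 CPM (0.84 ± 0.31). The lower members were Acvr1, a BMP type I receptor (−0.55 ± 0.17), Csf1 (−0.53) and its receptor Csf1r (−0.48). Acvr1 was −0.43 in the low-share libraries and −0.36 with the share as a covariate, and did not pass in either. Of the same list 5 were higher and 0 lower in the low-share libraries, beside 4.54% and 4.45% over all genes, Bmp6 and Il6ra among them at 0.47 and 1.40.

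Of 23 tested endothelial and angiogenic genes 4 were higher and 0 lower, beside 2.31% higher over all genes. Differences were positive in 20, beside 49.8% over all genes. The median was 0.17, and the SD of the list's median between mice of the same group was 0.24. The count higher was 1 without HFD-75% replicate 3 or HFD-C replicate 1 and 6 without HFD-C replicate 4, and the median ran from 0.07 without HFD-75% replicate 3 to 0.29 without HFD-C replicate 4. Cldn5, the tight junction protein of endothelium, was at 8.34, 9.34 and 14.8 CPM in HFD-75% and 3.30, 5.80 and 9.27 CPM in HFD-C, a difference of 0.82 ± 0.23. Flt1 (0.43), a VEGF receptor, Dll4 (0.45), a Notch ligand of sprouting vessels, and Egfl7 (0.37) were also higher. The low-share libraries gave 5 higher and 0 lower, beside 4.54%, with a median of 0.44, and Cldn5 was 0.81. The pericyte markers Rgs5 and Pdgfrb were higher there too, and their part in the endothelial values was not tested. Vegfa, the ligand made by muscle fibres, was at 217, 237 and 304 CPM against 201, 232 and 254 CPM, a difference of 0.13 ± 0.12.

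Immediate early genes, which cells induce within minutes of a stimulus, had mostly negative differences. Of 25 tested, 2 were higher and 5 lower, beside 2.31% and 3.16% over all genes, and the median was −0.16. In the low-share libraries 0 were higher and 7 lower (beside 4.45%) with a median of −0.34. Over all 12 libraries 3 were lower without HFD-C replicate 5 or 6. Csrnp1 was at 0.691, 2.13 and 2.82 CPM in HFD-75% and 2.18, 4.0 and 5.64 CPM in HFD-C (−1.10 ± 0.32). Nr4a1, an orphan nuclear receptor, was at 84.9, 155 and 190 CPM against 159, 229 and 322 CPM (−0.62 ± 0.19), and Jund, Zfp36 and Klf2 were −0.48, −0.62 and −0.67. Klf10, a TGF-beta-inducible repressor, went the other way at 20.2, 29.2 and 46.4 CPM against 13.8, 18.9 and 27.3 CPM (0.70 ± 0.21), and so did Zfp36l1 (0.33). Klf10 was 0.64 in the low-share libraries and 0.59 with the share as a covariate, and did not pass in either. Jun, the most abundant of these with Dusp1 and Nr4a1, was at 0.07 ± 0.15.

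**Figure D4:**
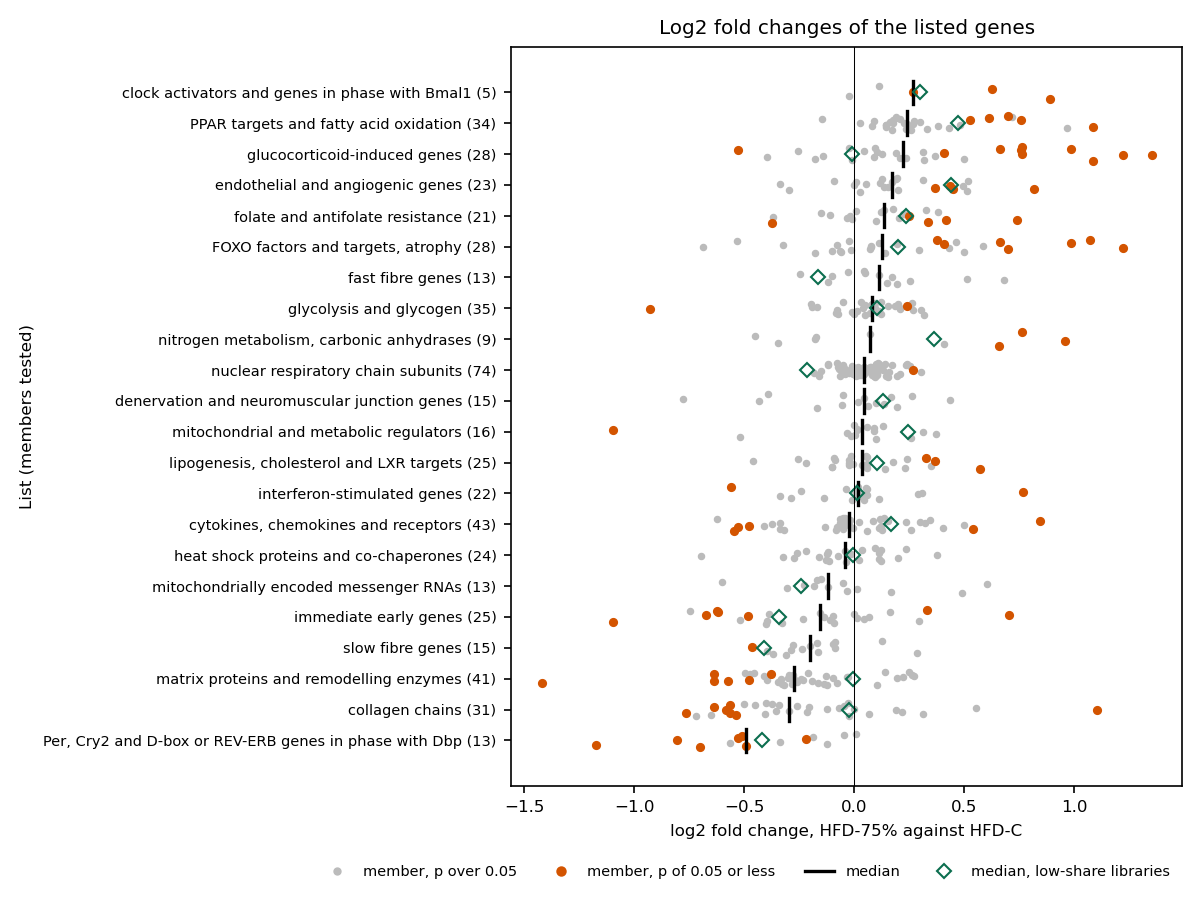
Log2 difference (HFD-75% minus HFD-C) of the tested members of 22 gene lists. Each point is 1 gene, orange points have an unadjusted p of at most 0.05, the black bar is the list's median and the green diamond its median in the low-share libraries. The diamonds of collagens and matrix proteins, at −0.02 and −0.00, lie right of their bars at −0.30 and −0.27, and the diamond of the PPAR list, at 0.47, lies right of its bar at 0.24.

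The contractile and respiratory genes gave little difference. For the counts below, 2.31% of all genes were higher and 3.16% lower, and 4.54% and 4.45% in the low-share libraries. Of 13 fast fibre genes 0 passed in edgeR in either direction, and of 15 slow fibre genes 1 was lower, Myl6b at −0.47, with a median of −0.20 that ran from −0.45 to 0.03 with 1 mouse left out. Of 74 nuclear respiratory chain subunits 1 was higher (Ndufa9, 0.27 ± 0.12) and 0 lower with a median of 0.05, and of the 13 mitochondrial messenger RNAs 0 passed and the median was −0.12. The low-share medians of nuclear and mitochondrial subunits were −0.21 and −0.24. Of 16 mitochondrial and metabolic regulators 1 was lower, Ppargc1b (PGC-1β), at 3.02, 4.37 and 14.0 CPM against 3.84, 10.4 and 28.5 CPM (−1.10 ± 0.44), and in the low-share libraries it was −0.06. Of 35 genes of glycolysis and glycogen 1 was higher (Pgk1, 0.24) and 1 lower (Pfkfb3, −0.93), and of 25 genes of lipogenesis, cholesterol synthesis and LXR action 3 were higher, which were Abca1 (0.57), a cholesterol exporter, Lpcat3 (0.37) and Nr1h3 (0.33), which encodes LXRα. Interferon-stimulated genes gave 1 higher (Oasl2, 0.77) and 1 lower (Xaf1, −0.56) of 22. Of 24 heat shock genes and of 15 genes of denervation and the neuromuscular junction 0 passed in edgeR. In the low-share libraries glycolysis gave 3 higher (Hk1 and Pfkfb1 among them) and 2 lower (Pgam2 and Pfkfb3), heat shock genes 1 higher (Hspa4l) and 2 lower (Hspb1 and Dnaja1), lipogenesis 3 higher, and the metabolic regulators (Nrip1) and interferon-stimulated genes 1 higher each. The fast fibre (Pvalb), slow fibre and nuclear respiratory lists (Ndufs7) gave 1 lower each there, and the mitochondrial messenger and neuromuscular lists 0. Without HFD-C replicate 6 over all libraries 8 nuclear respiratory subunits were higher, and without HFD-C replicate 3 there were 3 heat shock genes lower.

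The genes that the study names number 12 and were selected on these samples, so their direction is not independent evidence. Of these, 10 were higher, 1 lower (Lars2, described above) and 1 did not pass, Aldh9a1 (0.35 ± 0.32), with a list median of 0.72, and 7 were higher and 0 lower in the low-share libraries with a median of 0.88. Xdh, the purine-degrading xanthine dehydrogenase, was at 54.0, 71.1 and 93.7 CPM in HFD-75% and 30.3, 38.0 and 76.7 CPM in HFD-C (0.67 ± 0.20, low-share 1.07). Fibin was at 13.8, 21.7 and 48.9 CPM against 3.50, 9.62 and 18.1 CPM (1.35 ± 0.37, low-share 1.33, which did not pass). Phyhd1 was 0.46 higher, and in the low-share libraries 0.71.

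HFD-75% was then set beside the other runners in fits of 2 groups, which share the HFD-75% mice with the comparison above. Against HFD-50%, 639 of 11896 genes (5.37%) passed the unadjusted threshold, 178 higher (1.5%) and 461 lower (3.88%) in HFD-75%, and in 22 (0.185%) the groups did not overlap, 9 higher (0.0757%) and 13 lower (0.109%). Against HFD-U it was 659 of 11841 (5.57%), 318 higher (2.69%) and 341 lower (2.88%), with 52 (0.439%) apart, 26 (0.22%) in each direction. Against HFD-25% it was 375 of 12033 (3.12%), 113 higher (0.939%) and 262 lower (2.18%), with 11 (0.0914%) apart, 4 higher (0.0332%) and 7 lower (0.0582%). None passed an adjusted p of 0.05 in edgeR in any of the 3, where DESeq2 gave 0, 23 and 1.

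Against HFD-U, of 13 genes in phase with Dbp 10 were lower in HFD-75% than in HFD-U and 0 higher, with a median of −0.47. Of 5 in phase with Bmal1 3 were higher with a median of 0.50. Over all genes 2.69% were higher and 2.88% lower, which also stand beside the list counts that follow. Ciart was at 2.07, 4.32 and 7.65 CPM in HFD-75% and 12.5, 14.6 and 26.8 CPM in HFD-U, with no overlap (−1.90, edgeR adjusted p = 0.0644). Nr1d1 was −1.51, Bhlhe40 −0.97, Dbp −0.96 and Arntl 1.15. Angptl4 was at 7.81, 14.4 and 25.8 CPM against 4.25, 5.21 and 6.06 CPM, also with no overlap (1.52, edgeR adjusted p = 0.0644). Of 28 glucocorticoid-induced genes 7 were higher and 1 lower, with Zbtb16 at 0.80, Pdk4 at 0.77 and Fkbp5 at 0.73, and Foxo1 (0.83) and Trim63 (1.14) were higher as well. Of 34 PPAR targets 5 were higher, and of 22 endothelial genes 4. Rnase13, a ribonuclease family member, was 2.13 higher at 1.58 to 9.81 CPM against 0.649 to 2.29 CPM, Klf10 was 1.09 higher, and Coq10b was −0.68 at 8.15 to 12.7 CPM against 13.3 to 17.8 CPM.

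Against HFD-50% the clock lists held 0 genes past the threshold in edgeR, and Foxo1 (−0.12), Fkbp5 (−0.18), Pik3r1 (−0.21) and Nr1d1 (0.05) did not pass. Of the slow fibre genes 5 of 15 were lower in HFD-75%, beside 3.88% over all genes. Their median was −0.80, with Myh7 at −1.31 and Tnnt1 at −1.54. Among mice of the same group in HFD-75% and HFD-C, that list's median had an SD of 1.08. By length-scaled counts Myh7 was 0.0304 to 0.438% of adult myosin in HFD-75% and 0.122 to 1.30% in HFD-50%. Also lower were 6 of 29 glucocorticoid-induced genes, led by the metallothioneins Mt1 (−1.79) and Mt2 (−1.99). Aldh9a1 (−1.07) and Phyhd1 (−0.62) were lower too. The smallest p on the higher side were those of Gm29773 (0.86), Mettl5, an rRNA methyltransferase, at 7.26 to 8.38 CPM against 5.66 to 6.18 CPM, and Atg4d, an autophagy protease, at 35.8 to 45.9 CPM against 25.3 to 34.4 CPM, and Acap2 was −0.42. Against HFD-25%, Map3k15, a kinase of the ASK family, was at 1.55, 2.37 and 3.15 CPM in HFD-75% and 4.35, 4.73 and 5.95 CPM in HFD-25%, with no overlap (−1.01, edgeR adjusted p = 0.953). Rin2 was at 5.49 to 8.46 CPM against 8.69 to 13.1 CPM (−0.63), Cd274, the ligand PD-L1, was −1.47, Ppan, which acts in ribosome assembly, was 0.39 higher, and Nr4a3 and Arid5a were 1.03 and 0.82 higher. Of 22 interferon-stimulated genes 4 were lower (Irf1, Rsad2, Usp18 and Xaf1), beside 2.18% over all genes, with a median of −0.60.

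Over the 5 high-fat groups, on a scaling common to all libraries, Foxo1 had a mean of 33.6 ± 14.8 CPM without running (HFD-C, ± SD, n = 6 in each group), 66.3 ± 25.3 CPM at 2.1 km/day, 84.5 ± 34.5 CPM at 4.2 km/day, 78.0 ± 22.4 CPM at 6.3 km/day and 44.0 ± 22.2 CPM at 8.3 km/day. Fkbp5 stood at 71.2 ± 40.4, 170 ± 62.7, 205 ± 70.2, 181 ± 58.5 and 109 ± 30.5 CPM by rising distance. The means of HFD-50% and HFD-75% lay within 1 SD of each other in both genes and HFD-U lay between HFD-75% and HFD-C. Nr1d1 ran the other way, at 45.2 ± 15.4, 33.3 ± 11.7, 24.8 ± 8.45, 25.7 ± 8.27 and 73.2 ± 29.97 CPM, with HFD-U above HFD-C. Nfatc2 was at 22.4 ± 5.67, 13.4 ± 5.13, 11.3 ± 2.05, 10.6 ± 1.47 and 15.1 ± 4.55 CPM.

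**Figure D5:**
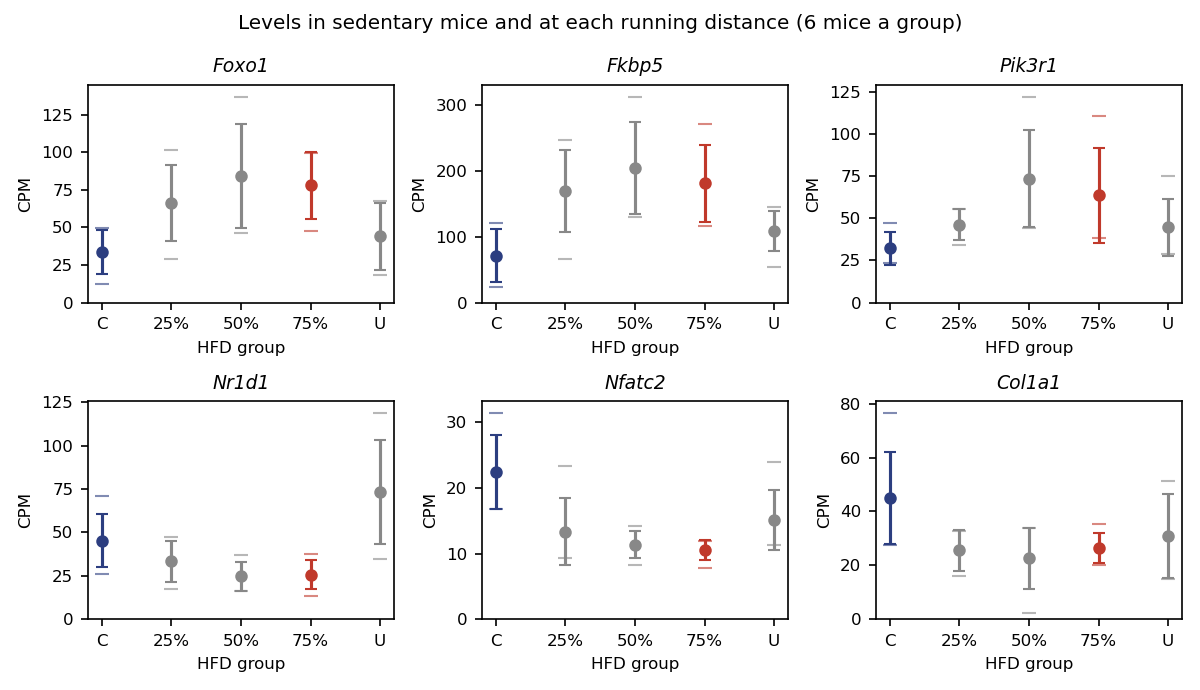
Mean expression in CPM (points) with the SD (bars) and the lowest and highest mouse (dashes) of 6 genes in the 5 groups on the high-fat diet, 6 mice in each. Foxo1, Fkbp5 and Pik3r1 have their highest means in HFD-50%, with HFD-75% within 1 SD of it, and Nr1d1 is lowest in HFD-50% and HFD-75% and highest in HFD-U.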

How the data were processed

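RNA was extracted from 1 gastrocnemius of each mouse, messenger RNA was purified with poly-T beads and sequenced as paired reads, and 36 libraries were deposited, of which the 12 of HFD-75% and HFD-C were compared here and 18 further ones of HFD-25%, HFD-50% and HFD-U were set beside them. The authors deposited 1 table of whole-number counts of reads per gene, not normalized, for 46893 features, of which 17549 were at 0 in all libraries and 562 had no symbol. The submitters' processing notes name HISAT2 2.0.5, StringTie 1.3.3b, featureCounts 1.5.0-p3, DESeq2 1.20.0 and edgeR 3.22.5 and the build mm10, but the chromosome accessions of the table are those of GRCm39, the build named for gene positions here. Whether strand was used in counting is not given in the sources used here, so overlapping and antisense genes such as Flrt1 are uncertain. Pseudogenes and close paralogs, such as the Gm and ps genes and the hemoglobins, are uncertain where reads could be split between copies.

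Genes averaging 25 or more counts in the libraries fitted were tested with edgeR 4.0.16 in R 4.3.3 (TMM factors, quasi-likelihood F-test, two-sided, Benjamini-Hochberg adjustment over all genes tested), with SE taken as the difference over the square root of F. Alternatives were DESeq2 1.42.0, limma 3.58.1 (voom with quality weights), DESeq2's size factors in edgeR, no count minimum, removal of the rRNA-linked features, their share as a covariate, libraries with a share under 1.5%, the replicate number as a block, 1 fit over 30 mice and leaving out each mouse. The scripts were tested on simulated counts. The total counts limit the precision of genes at low CPM. p-values measure the spread between these mice.

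The members and gene lists were chosen with earlier results of these data known. Genes were named by a rule: the 6 with the smallest p in each direction, the 2 with the smallest p in each list, the genes the study names, up to 12 that passed an adjusted p of 0.05 with any 1 library left out, and 3 in each direction of each comparison between running groups. Not every gene that the rule gave is printed. Other members of the lists that passed, and the genes whose groups did not overlap, were named after their values were seen, and 1 of the latter is not reported here. Promoter windows were matched by gene identifier in a RefSeq table, for 5 of 6, 11 of 13 and 27 of 30 members of the 3 lists searched.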

Additional observations from a re-analysis of the deposited data

Results flagged for a closer look

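Of the 128 groups of 6 mice examined for the named genes, 6 held 1 mouse far from the other 5 by Dixon's gap test, where 1 in 20 would be 6.4. Myh1, the 2X myosin heavy chain, was at 15569 CPM in HFD-75% replicate 1, and the next of its group was at 5416 CPM and the lowest at 2144 CPM. The same mouse was high in Ppargc1b, at 14.0 CPM, with the next at 7.07 CPM and the lowest at 3.02 CPM. The mitochondrial subunit ND3 was at 91.2 CPM in HFD-75% replicate 6, the next being 26.8 CPM and the lowest 7.70 CPM.

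In HFD-C, Car4 reached 11.9 CPM in replicate 4, with the next at 6.05 CPM and the lowest at 2.94 CPM. Myl6b, a slow light chain, was at 12.8 CPM in replicate 6, with the others from 6.24 to 7.78 CPM. Oasl2, an interferon-stimulated gene, was at 2.16 CPM in replicate 5, beside 1.08 to 1.35 CPM in the rest. The causes were not tested.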

How the results depend on the processing

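Of 12113 genes, 663 passed the unadjusted threshold (280 higher, 383 lower) and 0 the adjusted one with edgeR. Voom gave 1008 (450 higher), edgeR without a count minimum 2157 (1018 higher, 1139 lower), DESeq2 without it 1103 (441 higher, 662 lower), the covariate 1020 (536 higher) and the low-share libraries 1069 (540 higher). The share of higher genes was 42.2%, against 52.5% with the covariate, 50.5% in the low-share libraries and 36.5% in the fit over 30 mice. At an adjusted p of 0.05 there were 40 with DESeq2 (21 by 2-fold or more), 3 with voom (3), 8 without a minimum in edgeR (7), 20 in DESeq2 (13) and 7 over 30 mice (7). With 1 mouse left out the unadjusted count ran from 514 to 807, and the adjusted and 2-fold counts from 0 to 11, which were 6 without HFD-C replicate 5, 11 without HFD-C replicate 6 and 0 otherwise; in those 2 HFD-C mice the rRNA-linked share was low. The cause of these changes was not tested.

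With the replicate block, 835 genes passed the unadjusted threshold and 1 the adjusted one, also 2-fold. The numbers do not pair the mice: 1 of 6 same-numbered pairs had a correlation above 0.1 (0.6, lowest −0.118), and 1 of 6 mice matched its own number best. The block gave 924 genes against HFD-50%, 873 against HFD-U (2 adjusted) and 518 against HFD-25%.

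Against HFD-50%, 639 became 1826 without a minimum, 999 without the mice numbered 1, and 378 (without HFD-75% replicate 2) to 1158 (without HFD-50% replicate 1) with 1 mouse left out. Against HFD-U, 659 became 1706 without a minimum and 461 to 996 (without HFD-75% replicate 1), and adjusted counts were 23 with DESeq2, 8 without a minimum and 0 to 4 with 1 mouse left out (4, 1 and 2 without HFD-75% replicates 1, 3 and 6). Against HFD-25%, 375 became 1378 without a minimum, 731 without the mice numbered 1 and 245 to 812 with 1 mouse left out (812, 570, 247 and 245 without HFD-25% replicates 1, 2, 3 and 6), and DESeq2 gave 1 adjusted gene.

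Of 1463 values of named genes under alternatives, 1314 kept direction and side of the threshold, 111 lost and 24 gained the call, and 14 reversed. With the covariate and in the low-share libraries AY036118 was 0.26 and 0.42, Lars2 0.14 and 0.34, LOC118568312 0.22 and 0.39, Lrp4 0.076 and 0.050 and Pln 0.33 and 0.32. Pln was 0.016 without the mice numbered 1, ND3 −0.0074 with the covariate and −0.24 (without HFD-75% replicate 6) to 0.80 with 1 mouse left out, and Ppargc1b 0.076 with the covariate.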

Other observations

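Lpin1 and Npc1 stand outside the lists and were picked after their values were seen. Lpin1, a phosphatidate phosphatase of triglyceride synthesis, averaged 419 CPM in HFD-75% and 278 CPM in HFD-C (0.59), and Npc1, which carries cholesterol out of lysosomes, 139 and 84.5 CPM (0.72). Coq10b, a coenzyme Q-binding protein named above for its difference from HFD-U, averaged 9.87 and 18.97 CPM (−0.94) and was −1.38 in the libraries with a low rRNA-linked share. All 3 passed an unadjusted p of 0.05 in edgeR, and Coq10b passed the adjusted one in DESeq2.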
